A study of Rattus norvegicus with 4 samples.

Results

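Fatty acid synthesis, elongation and desaturation were followed through 10 rat genes, Fasn, Acaca, Acly, Scd, Scd2, Elovl5, Elovl6, Fads1, Fads2 and Me1. They were taken by name, and every probe whose RefSeq accession belonged to one of them was used. This gave 15 probes, all of which were bright enough to be tested, among 23190 tested probes of 41012 on the array. The tested probes named 9304 genes, and the 10 genes were read against these.

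The tissue was a block of hypothalamus spanning bregma -2.12 to -4.52 mm, taken from 8 Sprague Dawley rats, all male, at 10 weeks of age. The rats had been 7 weeks old when the experiment began, and total RNA was used. All 8 rats, the saline group included, were made hypothyroid with methimazole (MMI, an inhibitor of thyroid hormone synthesis) at 0.025% in the drinking water for 22 days, so no rat with an untreated thyroid entered the comparison. On day 21, 4 rats received saline and 4 received triiodothyronine (T3, the active thyroid hormone) at 25 ug per 100 g, and tissue was collected 24 hours later. Each of 4 two-colour Agilent arrays carried RNA labelled as T3 in one dye and as saline in the other, with Cy5 marking the T3 sample on arrays 1 and 3, and Cy3 marking it on arrays 2 and 4. Every ratio below is log2 of T3 over saline, so 0 is no difference and a value above 0 is a higher level after T3. The labels name 8 rats and 4 replicates, and the 4 arrays were treated as 4 separate pairs of rats.

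Fatty acids are built in the cytosol from acetyl-CoA, which ATP citrate lyase (Acly) makes from citrate and acetyl-CoA carboxylase (Acaca) converts to malonyl-CoA. Fatty acid synthase (Fasn) joins these units into palmitate with NADPH, part of which malic enzyme (Me1) supplies. Elongases and desaturases then lengthen palmitate and dietary fatty acids and add double bonds, and the brain uses the products in myelin and synaptic membranes. In liver, several of these genes are textbook targets of thyroid hormone, together with Thrsp, a lipogenic protein named for that response.

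None of the 10 genes passed an adjusted p of 0.05 in limma, against 0.161% of all named genes tested (15 of 9304). Fads1, the delta-5 desaturase, had the highest mean ratio of the 10, 0.44 ± 0.26 (SD, n = 4 arrays), a fold of 1.36. Elovl5, Elovl6, Fads2 and Me1 had means between 0.13 and 0.26. The 5 genes of palmitate synthesis and of the delta-9 desaturation step, Fasn, Acaca, Acly, Scd and Scd2, had means between -0.05 and 0.03. Of the 10 genes, 3 had an unadjusted limma p under 0.05 with a higher level after T3 (Fads1, Elovl6 and Elovl5), beside 5.34% of all named genes, and 0 with a lower level, beside 3.92%. The median of the 10 means was 0.08, with 7 means above 0 and 3 below, while the median over all named genes was 0.0042. The 10 genes were chosen with results of these arrays known, so these counts describe them and carry no test of the group.

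The RNA check of the treatment used 3 genes known to respond to thyroid hormone. Hr, a thyroid hormone-induced corepressor, was higher on all 4 arrays, with a mean of 1.18 ± 0.15 and an adjusted p of 0.0129 in limma; this call was lost without array 1, 3 or 4, with processed signals, with median centring and in the authors' deposited table. Klf9, a transcription factor gene, had a mean of 0.90 ± 0.27 on its brightest probe (limma adjusted p = 0.0517) and of 1.09 ± 0.17 on its other probe, which passed (limma adjusted p = 0.0129). Dio3, which encodes the enzyme that inactivates T3, lay between 1.40 and 3.56 over the arrays (mean 2.49, limma adjusted p = 0.0839). It was 3.43 and 3.56 with T3 in Cy5, and 1.59 and 1.40 with T3 in Cy3. Its limma adjusted p was 0.000746 with the dye added as a term to the fit. It was 0.298 in limma with a trended robust variance, and 0.436 in the authors' deposited table. A second Dio3 probe, too dim to be tested, gave 0.22, 0.48, 0.50 and 0.14 on arrays 1 to 4. Over all probes 23 passed the threshold, 22 of them with a higher level after T3, and 0 did so without array 1, 3 or 4 and 68 without array 2. All 16 tested markers of hypothalamic nuclei were well above background on all 4 arrays in both channels. Between 51.0% and 68.3% of spots were well above background per channel, 0 spots were saturated, and all 4 arrays lay on 1 slide and were scanned together.

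The sequences upstream of Fads1, Fads2 and Elovl5 are shown because these are the desaturases and the elongase that act in turn on polyunsaturated fatty acids, and because the highest mean ratios of the 10 genes were among them. Each is the RefSeq sequence on build GRCr8 from 250 bases before to 50 bases after the annotated start of the gene, given 5′ to 3′ on the gene's strand. Capitals mark CCAAT (or ATTGG, the same letters on the other strand), the core bound by NF-Y, and CACGTG, an E-box. The windows are chr1:216252442-216252741 on the plus strand for Fads1, chr1:216171984-216172283 on the minus strand for Fads2 and chr8:87670914-87671213 on the plus strand for Elovl5.
Fads1: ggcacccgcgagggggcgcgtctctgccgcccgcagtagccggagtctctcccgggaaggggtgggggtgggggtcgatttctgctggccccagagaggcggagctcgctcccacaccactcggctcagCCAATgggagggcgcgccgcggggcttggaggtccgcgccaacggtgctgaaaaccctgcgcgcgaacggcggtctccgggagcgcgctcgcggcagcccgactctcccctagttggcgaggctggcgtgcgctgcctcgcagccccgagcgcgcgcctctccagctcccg
Fads2: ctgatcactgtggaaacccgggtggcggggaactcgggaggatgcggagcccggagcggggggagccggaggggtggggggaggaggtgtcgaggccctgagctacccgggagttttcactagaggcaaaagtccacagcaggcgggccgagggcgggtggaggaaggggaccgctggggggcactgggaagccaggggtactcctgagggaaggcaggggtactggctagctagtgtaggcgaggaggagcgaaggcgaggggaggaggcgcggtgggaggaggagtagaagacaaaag
Elovl5: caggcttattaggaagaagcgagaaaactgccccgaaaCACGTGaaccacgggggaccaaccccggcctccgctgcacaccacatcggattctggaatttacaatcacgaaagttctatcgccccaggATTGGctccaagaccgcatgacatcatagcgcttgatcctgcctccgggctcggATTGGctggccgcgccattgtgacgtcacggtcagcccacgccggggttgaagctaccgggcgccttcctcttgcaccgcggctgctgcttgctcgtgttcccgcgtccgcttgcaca

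The promoter table held 7 of the 10 genes, all but Fasn, Acaca and Elovl6. CCAAT was present on either strand in 4 of these 7, Fads1, Scd2, Elovl5 and Acly, and in 37.5% of all 33469 promoters of the table. In Fads1 it began 121 bases before the start site, and in Elovl5 it lay on the minus strand at 122 and 68 bases before it. CACGTG was present in 1 of the 7, Elovl5, at 212 bases before the start, and in 6.42% of all promoters. The remaining letters searched on both strands were in 0 of the 7 windows: CACCCCAC, a sterol regulatory element (2.70% of all promoters), AGGTCA, the half-site of nuclear receptors (16.2%), and a direct repeat of AGGTCA with a spacer of 4, which contains the half-site and is the arrangement classically bound by the thyroid hormone receptor (0.00598%, 2 promoters). These windows are short, each such match is a match of letters, and binding was not measured.

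Acly, which makes cytosolic acetyl-CoA, had ratios of 0.21, -0.32, 0.18 and -0.11 on arrays 1 to 4. It was therefore above 0 on both arrays with T3 in Cy5 and below 0 on both with T3 in Cy3, and the mean was -0.01 ± 0.25 (limma adjusted p = 0.997). The 95% interval of the mean ran from -0.25 to 0.23. Acaca, the carboxylase that makes malonyl-CoA, had the same arrangement, with 0.29, -0.22, 0.20 and -0.16. Its mean was 0.03 ± 0.25 with an interval from -0.22 to 0.27 (limma adjusted p = 0.988). Its probe was dim, and was well above background on 3 of the 4 arrays in the saline channel. In the authors' deposited table Acly had 0.19, 0.15, 0.45 and 0.05, all above 0. Acaca kept its arrangement there, with 0.16, -0.20, 0.18 and -0.03.

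Fasn, the synthase itself, was measured by 2 probes. The brighter gave -0.21, 0.04, -0.13 and 0.20, with a mean of -0.03 ± 0.18, an interval from -0.23 to 0.18 and a limma adjusted p of 0.983. The second gave -0.11, -0.09, -0.09 and 0.20, with a mean of -0.02 ± 0.15. Its spot had a log2 intensity of 13.34 to 13.57 in both channels of arrays 1 to 3, but of 7.41 (T3) and 7.21 (saline) on array 4, where the brighter probe was at 14.36 and 14.16. Its ratio on array 4 therefore comes from a spot that had lost most of its signal in both channels, and it is not read as agreement with the brighter probe; over arrays 1 to 3 its mean was -0.10. The brighter probe was below 0 on both arrays with T3 in Cy5 and above 0 on both with T3 in Cy3, the reverse of Acly and Acaca. In the authors' deposited table this probe had 0.12, 0.16, -0.06 and 0.26, without that arrangement.

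A sign on both Cy5 arrays opposite to that on both Cy3 arrays was found in 3 of the 9 genes with a value on every array, Fasn, Acaca and Acly, beside 23.5% of all named genes. This holds for the ratios normalized here. In the authors' deposited table Acaca alone of the 3 had such signs. With the dye added as a term to the limma fit, that term had an adjusted p of 0.206 for Acaca and 0.229 for Acly, and so passed for neither. The mean ratio of Acaca was 0.24 with T3 in Cy5 and -0.19 with T3 in Cy3, and that of Acly 0.19 and -0.21. Each orientation was used on 2 arrays, so an additive effect of the dye cancels in the mean of a probe with a value on every array. The brightest probes of Me1, Hadh and Insig1 lacked an array with T3 in Cy3, so it does not cancel there. The mean of that Me1 probe was 0.13, and 0.18 with the dye term.

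**Figure D1:**
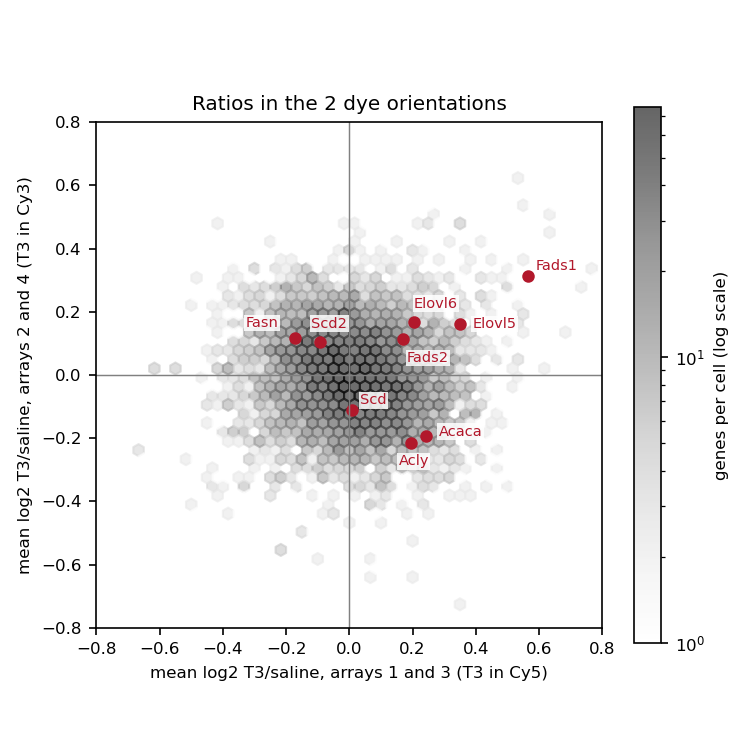
Mean log2 ratio of T3 over saline on arrays 1 and 3 (T3 in Cy5, x axis) against arrays 2 and 4 (T3 in Cy3, y axis); red points are 9 of the 10 genes (Me1 had no value on array 4), and grey cells count all named genes with a value on all 4 arrays, within the axes shown. Acaca and Acly lie at the lower right (0.24 and 0.19 against -0.19 and -0.21), Fasn at the upper left (-0.17 against 0.12), and Fads1 at the upper right (0.56 against 0.31).

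Me1, cytosolic malic enzyme, was measured by 2 probes. The brighter gave 0.03, 0.33 and 0.04 on arrays 1 to 3, and its spot on array 4 was marked as an outlier by the scanner software and dropped, so its mean of 0.13 ± 0.17 is over 3 arrays (limma adjusted p = 0.841). The dimmer probe gave -0.07, 0.11, 0.19 and 0.19, with a mean of 0.11 ± 0.12 (limma adjusted p = 0.826). The highest array thus differed between the probes, and the 2 had the same sign on 2 of the 3 arrays they shared. Without array 2 the mean of the brighter probe was 0.03, and with each array's ratios centred on the median in place of loess it was 0.36.

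Scd and Scd2 encode stearoyl-CoA desaturases, which put the first double bond into stearate and palmitate at the delta-9 position; Scd2 is the form best known from brain. Scd gave -0.17, -0.45, 0.19 and 0.23, with a mean of -0.05 ± 0.32, the widest spread of the 10 genes, and an interval from -0.34 to 0.23 (limma adjusted p = 0.971). Arrays 1 and 2 were below 0 and arrays 3 and 4 above, which does not follow the dyes. The 2 genes are close paralogs, and how far their probes tell them apart was not tested.

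Scd2 was measured by 3 probes. The brightest gave -0.17, -0.03, -0.02 and 0.24, with a mean of 0.0048 ± 0.17 and an interval from -0.19 to 0.20 (limma adjusted p = 0.998). The second gave 0.26, -0.13, -0.14 and 0.25 (mean 0.06 ± 0.23) and the dimmest 0.11, -0.34, 0.01 and 0.13 (mean -0.02 ± 0.21). All 3 were above 0 on array 4 and below 0 on array 2, and they shared a sign on these 2 arrays alone.

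For Fasn, Acaca, Acly, Scd and Scd2 the 95% intervals of limma, read as folds, ran from no lower than 0.79 to no higher than 1.21. The interval of Acaca had the highest upper bound, 1.21, and that of Scd the lowest lower bound, 0.79. The sign of each of these 5 means turned under at least 2 alternative settings or left-out arrays, so no direction is given for them.

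Fads1, the delta-5 desaturase of arachidonate and eicosapentaenoate synthesis, had 1 probe. Its normalized log2 intensity was 11.42, 11.57, 11.35 and 11.81 in the T3 channel of arrays 1 to 4 and 10.83, 11.52, 10.81 and 11.24 in the saline channel. The saline sample of array 2 was the highest of the saline samples and lay above 2 of the 4 T3 samples, so the groups overlapped. The ratios were 0.59, 0.05, 0.54 and 0.57, that is, high on 3 arrays and near 0 on array 2. Their mean was 0.44 ± 0.26, a fold of 1.36 with a 95% interval from 1.14 to 1.61, and the limma adjusted p was 0.253. Without array 2 the mean was 0.57 and the limma adjusted p 0.0549. Of the 9304 named genes, 114 had a higher mean than Fads1.

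In the authors' deposited table of log ratios the Fads1 probe had 0.57, 0.89, 0.38 and 0.68 for the same arrays, and the same limma test gave an adjusted p of 0.310. Array 2 was thus the lowest of the 4 in the scanner signals and the highest in the authors' deposited table. Over the 22634 tested probes with a value on every array, the correlation of the authors' deposited table with the scanner ratios was between 0.19 and 0.43 per array, across probes, which are not independent replicates.

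Fads2, the delta-6 desaturase that acts before Fads1 in the same pathway, gave 0.22, 0.02, 0.12 and 0.20. All 4 ratios were above 0, and array 2 was again the lowest. From the scanner software's processed signals the ratios were 0.36, -0.19, 0.14 and 0.61. In the authors' deposited table they were -0.06, 0.29, 0.08 and 0.33, so array 1 was the lowest there. The probe was dim, though well above background on all 4 arrays in both channels. The mean of the ratios normalized here was 0.14 ± 0.09 (interval -0.03 to 0.31; limma adjusted p = 0.691). The log2 intensity of Fads2 ranged from 7.51 to 7.82 in the T3 channel and from 7.31 to 7.79 in the saline channel, so the groups overlapped.

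Elovl5, the elongase that lengthens the products of Fads2, gave 0.51, -0.09, 0.19 and 0.42. It was above 0 on 3 arrays and below 0 on array 2. The mean was 0.26 ± 0.27, a fold of 1.19 with an interval from 1.00 to 1.42 (limma adjusted p = 0.604). The probe was dim and was well above background on 3 of 4 arrays in the saline channel; from the scanner software's processed signals the mean was 0.58.

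Elovl6, which lengthens palmitate to stearate, had 2 probes that were above 0 on all 4 arrays in the ratios normalized here. The brighter gave 0.11, 0.29, 0.30 and 0.04, with a mean of 0.19 ± 0.13 and a fold of 1.14 (limma adjusted p = 0.601). The dimmer gave 0.02, 0.20, 0.09 and 0.0047, with a mean of 0.08 ± 0.09 (limma adjusted p = 0.881). The 2 probes were lowest on arrays 1 and 4, unlike Fads1, Fads2 and Elovl5, whose lowest ratio was on array 2. In the authors' deposited table the brighter probe was at -0.12 on array 4, and the dimmer at -0.14 and -0.18 on arrays 1 and 4. Their means there were 0.17 and -0.0058.

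**Figure D2:**
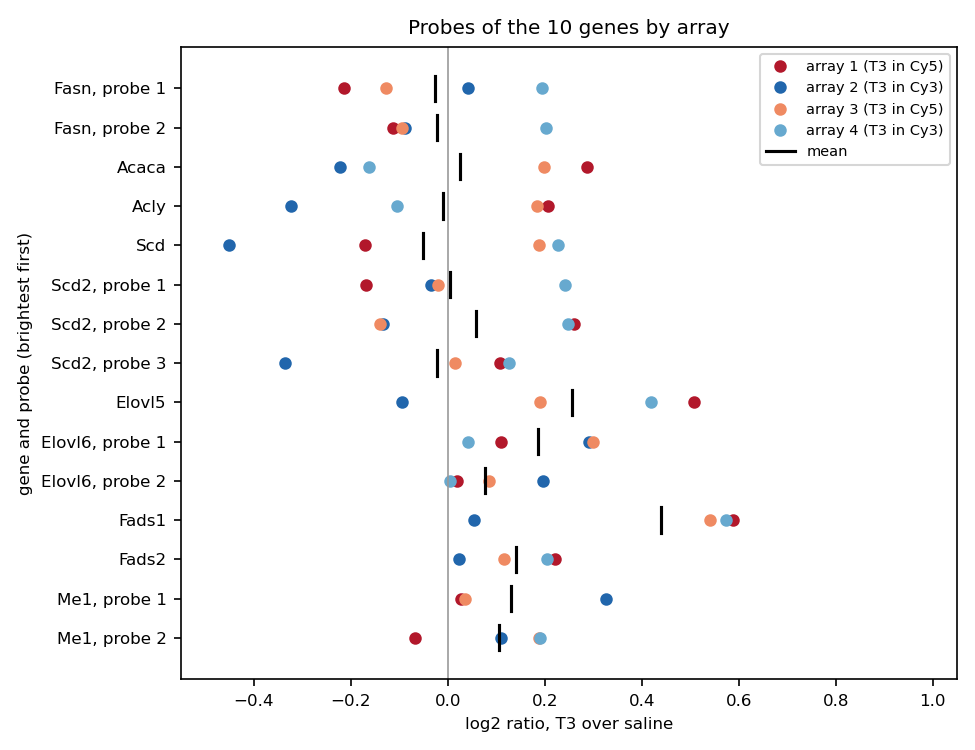
Log2 ratio of T3 over saline (x axis) on each array for the 15 probes of the 10 genes (rows), with 1 point per array and a bar at the mean; red and orange are arrays with T3 in Cy5, blues those with T3 in Cy3. The Fads1 points of arrays 1, 3 and 4 lie between 0.54 and 0.59 and that of array 2 at 0.05, while the points of Fasn, Acaca, Acly, Scd and Scd2 fall on both sides of 0.

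Among the 9 of the 10 genes with a value on every array, 3 were above 0 on all 4 arrays (Fads1, Fads2 and Elovl6), beside 9.74% of all named genes, and 0 were below 0 on all 4, beside 8.03%. By array, the median of the 10 genes was 0.16, -0.0055, 0.19 and 0.20 on arrays 1 to 4, lowest on array 2.

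**Figure D3:**
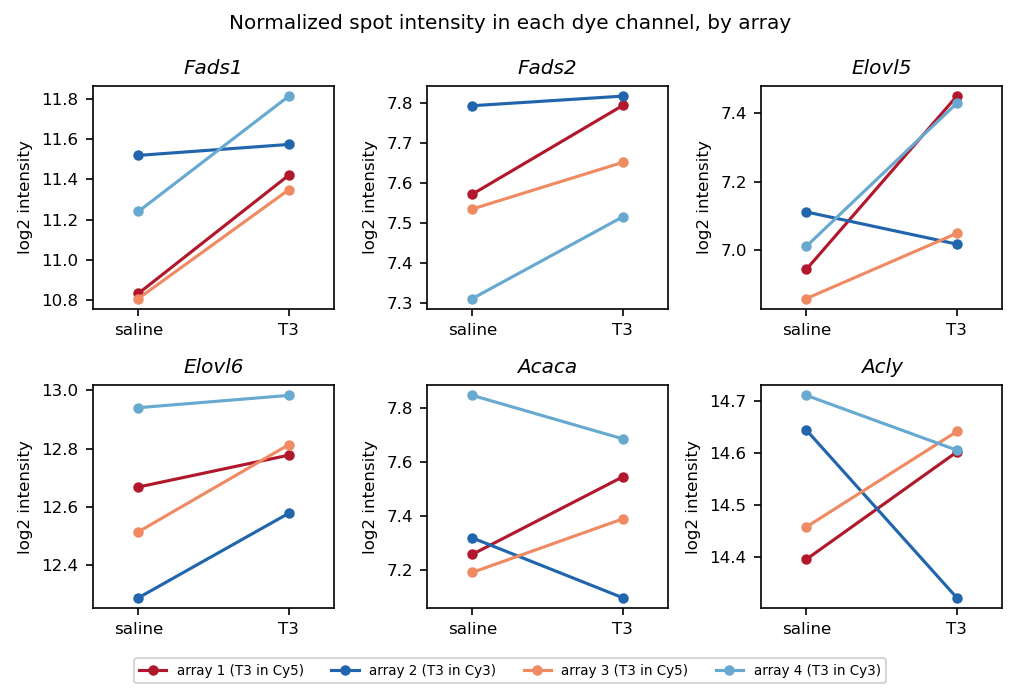
Normalized log2 intensity (y axis, own scale per panel) in the saline and the T3 channel of each array for 6 of the 10 genes; each line joins the 2 channels of 1 array. For Fads1, 3 lines climb steeply and that of array 2 is nearly level (11.52 to 11.57), whereas for Acaca and Acly the lines of arrays 1 and 3 climb and those of arrays 2 and 4 descend.

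**Figure D4:**
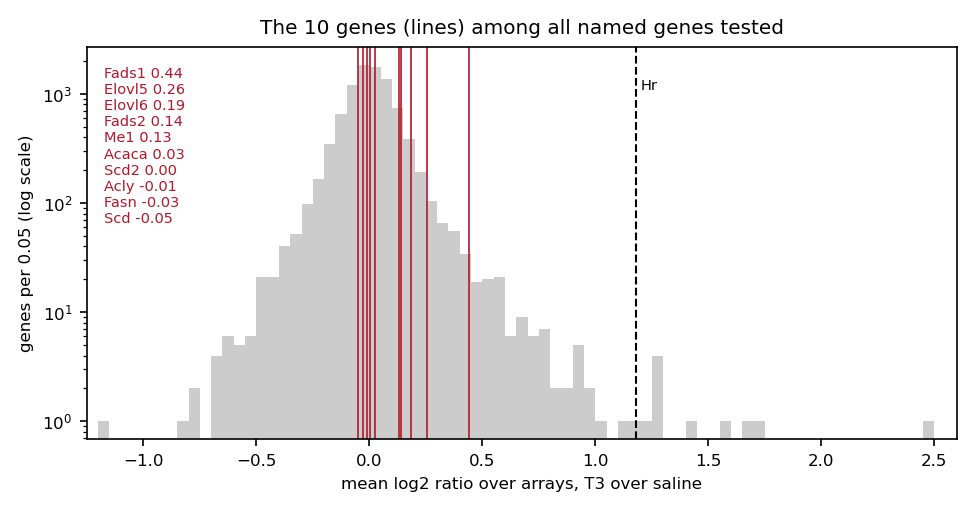
Histogram of the mean log2 ratio of T3 over saline (x axis) for the 9304 named genes tested, with the number of genes on a log scale (y axis); red lines are the 10 genes, and the dashed line is Hr at 1.18. The 10 genes lie between -0.05 and 0.44, within the bulk of the genes or, for Fads1, on its upper slope.

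The list for precursor and NADPH supply, mitochondrial enzymes included, was tested for 9 of 13 genes, of which 0 passed the threshold. Of the means, 3 lay above 0 and 6 below, with a median of -0.03. Acss1, mitochondrial acetyl-CoA synthetase, had the lowest mean of any gene in the lists on fatty acid metabolism. Its brightest probe gave -0.36, -0.92, -0.35 and -0.86 (mean -0.62 ± 0.31; limma adjusted p = 0.149). Its other 2 probes were also below 0 on all 4 arrays, with means of -0.47 ± 0.16 and -0.35 ± 0.21 and limma adjusted p of 0.120 and 0.323. Me2, mitochondrial malic enzyme, had a mean of -0.17 ± 0.16 (limma adjusted p = 0.668), and of -0.09 ± 0.16 on its other probe. Slc25a1, the carrier that exports citrate from mitochondria, had a mean of -0.07 ± 0.18 (limma adjusted p = 0.931).

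The other elongation and desaturation enzymes were tested for 9 of 14 listed genes, and 0 passed; 3 means were above 0 and 6 below, with a median of -0.08. Elovl2, which lengthens the products of Fads1, had a mean of -0.14 ± 0.11 on its brighter probe, below 0 on all 4 arrays (limma adjusted p = 0.699), and of -0.07 ± 0.10 on its other probe, below 0 on 3 arrays (limma adjusted p = 0.901). Hsd17b12, the ketoacyl reductase of the elongation cycle, had a mean of -0.19 ± 0.24 (limma adjusted p = 0.730), which was -0.10 without array 1 and 0.11 in the authors' deposited table.

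Regulators of lipogenic genes were tested for 14 of 17 listed genes, with 0 past the threshold, 8 means above 0, 6 below and a median of 0.02. Thrsp gave 0.46, 0.11, 0.13 and 0.20, above 0 on all 4 arrays, with a mean of 0.22 ± 0.16 (limma adjusted p = 0.545). Mid1ip1, a relative of Thrsp that promotes polymerisation of acetyl-CoA carboxylase, had a mean of -0.12 ± 0.20 (limma adjusted p = 0.841). Nr1h2, a liver X receptor, had a mean of -0.11 ± 0.05 and was below 0 on all 4 arrays (limma adjusted p = 0.781). Insig1, which holds the sterol-sensing complex in the endoplasmic reticulum, had a mean of 0.05 ± 0.32 over 3 arrays on its brightest probe and means of -0.06, -0.07 and -0.09 on its other 3 probes. Srebf1 had no probe matched to it here.

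Glycerolipid assembly, the use of the finished fatty acids, was tested for 12 of 14 listed genes, with 0 past the threshold, 8 means above 0, 4 below and a median of 0.11. Lpin3, a phosphatidate phosphatase, had a mean of 0.19 ± 0.15 (limma adjusted p = 0.624) and of 0.0021 in the authors' deposited table. Agpat5, an acyltransferase, had a mean of 0.25 ± 0.29 (limma adjusted p = 0.651), and of 0.11 without array 2. Fatty acid oxidation was tested for 18 of 19 listed genes, with 0 past the threshold, 7 means above 0, 11 below and a median of -0.03. At an unadjusted limma p under 0.05, 2 of them were higher and 2 lower, beside 5.34% and 3.92% of all named genes. Acadvl, the very-long-chain acyl-CoA dehydrogenase, had a mean of 0.24 ± 0.09 (limma adjusted p = 0.391), while its other probe, with 0.18 ± 0.26, was above 0 on 2 of the 4 arrays. Hadh, a hydroxyacyl-CoA dehydrogenase, had a mean of 0.27 ± 0.10 over 3 arrays on its brightest probe (limma adjusted p = 0.474). Its other probe, with a value on all 4 arrays, had a mean of 0.19 ± 0.13 (limma adjusted p = 0.582). In each of these 5 lists the median lay within 0.11 of 0.

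**Figure D5:**
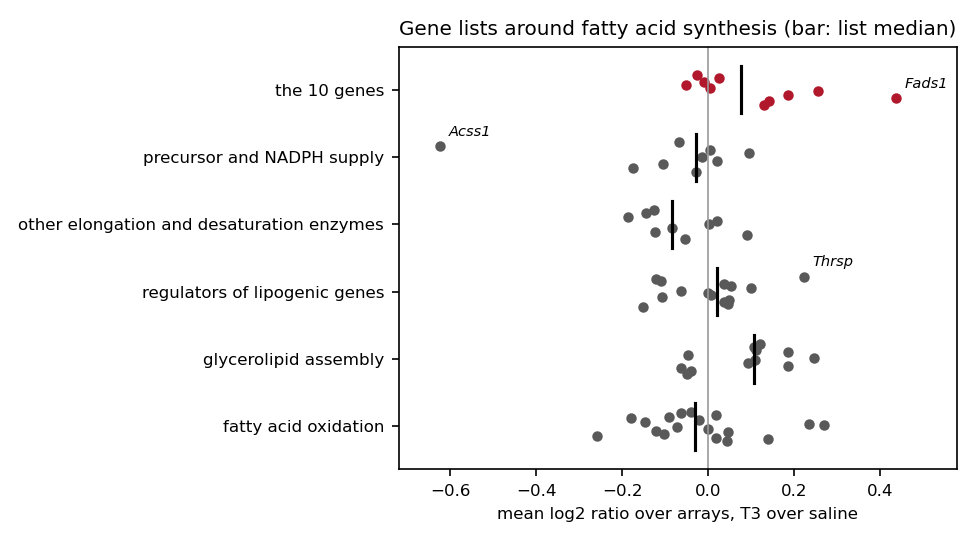
Mean log2 ratio of T3 over saline (x axis) for each tested gene (points) of the 10 genes and of 5 related lists (rows), with a bar at each list's median. The medians run from -0.08 to 0.11, and the points farthest out are Acss1 at -0.62 and Fads1 at 0.44.

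These were blocks of tissue, in which fewer cells of a type and less RNA per cell cannot be told apart. Oligodendrocytes and astrocytes are lipid-synthesising cells of the brain. The 13 oligodendrocyte and myelin markers had a median of -0.21, with 10 means below 0 and 0 past the threshold, and list medians of -0.17, -0.37, -0.22 and 0.12 on arrays 1 to 4. Their mean log2 level ranged from 11.57 to 12.19 over the T3 channels and from 11.90 to 12.30 over the saline channels. The 10 astrocyte markers had a median of -0.15, with 7 means below 0, list medians of -0.11, -0.37, -0.18 and 0.01, and mean levels from 12.56 to 12.79 (T3) and from 12.55 to 12.95 (saline). Both lists were lowest on array 2. In the ratios normalized here, Fads1, Fads2, Elovl5, Scd, Acly and Acaca also had their lowest ratio on that array. Of these, Acly and Acaca were below 0 on both arrays with T3 in Cy3. In the authors' deposited table Acaca alone of these was lowest on array 2 (-0.20), while Fads1 (0.89) and Scd (0.42) were highest on it. The remaining genes of the 10 differed on their brightest probes in the ratios normalized here. Me1 was highest on array 2 (0.33), Elovl6 had 0.29 there, and Fasn and Scd2 were lowest on array 1. The part of these cell types in the ratios of the 10 genes was not tested.

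Array 2 also differed in red blood cell markers, whose 3 tested genes had a median of -3.25 on it and of 0.34 to 1.35 on the others. Array 3 differed in choroid plexus markers, with a median of 1.61 over the 4 of 8 markers that were tested, against -0.37 to 0.28 on the others. Array 3 also differed in the 16 markers of hypothalamic nuclei, with a median of -0.45 against -0.09 to -0.02. Avp and Oxt, vasopressin and oxytocin, were at -2.63 and -2.53 on array 3, but at 1.17 and 1.81 on array 1. Whether these bear on the ratios of the 10 genes was not tested. Fat cells also make fatty acids. Of 5 adipocyte markers with a probe, Adipoq, Fabp4, Cidec and Lep were not bright enough to be tested, and Lpl, which brain also expresses, had a mean of 0.10. The 7 neuronal markers had a median of 0.02, the 9 microglial ones -0.07, the 6 endothelial ones -0.06, the 6 meningeal ones 0.12 and the hypothalamic ones -0.14.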

How the data were processed

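RNA of 4 T3 and 4 saline rats was compared on 4 arrays. The deposited scanner files gave median spot and background intensity, not normalized, from Agilent Feature Extraction 10.7.3.1 on an rn4 design, as well as processed signals and their log10 ratio (Cy5 to Cy3), per the file headers. Log2 ratios were in the authors' deposited table, and the submitters' processing notes name limma 3.18.9; its base and direction were read from 10 spike-in probes (slopes of 1.00 to 1.13 against the scanner ratios), its column medians were 0.0026, -0.0024, 0.0021 and 0.0030, and the sources used here do not give its normalization. Arrays 3 and 4 of that table correlated at -0.51 over the 22634 tested probes with a value on every array.

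Background was corrected with normexp (offset 50) and each array normalized by loess in limma 3.58.1 under R 4.3.3; control and outlier spots were dropped, and replicate spots were averaged by probe. Probes well above background on at least 3 of 4 arrays in either channel were kept (23190 of 41012). Accessions were matched to RefSeq symbols (GRCr8), which named 16964 probes; a gene took its brightest probe. Tests were limma (2-sided, 3 residual and 4.35 prior degrees of freedom), with Benjamini-Hochberg adjustment over all kept probes and a threshold of 0.05; a small number of arrays limits the precision. The fit was tested on simulated data with independent normal noise and no dye or array effect. That simulation cannot tell how far the calls depend on the arrays or the processing. All 10 genes are named with every probe; of each further pathway list, genes past the threshold or else the 2 with the smallest p, and always Thrsp, Srebf1, Mid1ip1, Slc25a1, Insig1, Hr, Klf9 and Dio3. The genes and lists were chosen with earlier results of these data known. Alternatives were other background and normalization settings, other filters, a dye term, other variance and array weights, the authors' deposited table, a looser threshold and left-out arrays. A planned comparison of protein sequences was not run.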

Additional observations from a re-analysis of the deposited data

Results flagged for a closer look

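In 57 groups of 4 values (gene or list ratios by array) the highest or lowest value was set against the others, and 3 stood apart by a gap above Dixon's 95% critical value for its share of the whole range; chance alone gives about 1 in 20. The Fads1 ratio on array 2 was 0.055, against 0.54 to 0.59 on the other 3 arrays (gap over range 0.912). The second Fasn probe gave 0.20 on array 4, while the remaining arrays gave -0.11 to -0.09 (0.923), and its mean without array 4 was -0.10. The spot's log2 intensity was 7.41 (T3) and 7.21 (saline) on array 4 and 13.34 to 13.57 on the other arrays. The median of the 14 regulators of lipogenic genes was -0.094 on array 3 and 0.03 to 0.04 elsewhere (0.906).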

How the results depend on the processing

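Fads1, Elovl5, Elovl6, Fads2 and Me1 stayed above 0 in all of their 13, 12, 14, 13 and 14 alternatives, with ranges of 0.38 to 0.63, 0.17 to 0.58, 0.13 to 0.23, 0.12 to 0.23 and 0.03 to 0.36. For Elovl6 the authors' deposited table entered by the brightest probe alone, and the dimmer probe had a mean of -0.0058 there. Many of the alternatives could not turn a sign. The filters and the trended variance leave a mean unchanged, as does the dye term for a gene with a value on every array. For Fads1, Elovl6, Fads2 and Me1, whose ratios were all above 0, array weights or a left-out array could not turn it either. None of the 10 genes passed the limma threshold of 0.05 under any alternative; the lowest adjusted p was 0.0549, for Fads1 without array 2. Over all probes the count of 23 became 0 with the scanner software's processed signals (1948 at an unadjusted p under 0.05), 0 with median centring (131), 10 with the authors' deposited table, 67 without the filter, 15 with a dye term, 38 with a trended robust variance, 90 at an adjusted p of 0.1, and 0 to 68 with 1 array left out (0 without array 1, 3 or 4, with 1403, 1383 and 1577 at an unadjusted p under 0.05). The sign turned for Fasn (0.12 in the authors' deposited table; -0.0997 to 0.0365 with 1 array left out), Acaca (-0.0293 both without background subtraction and with processed signals; -0.0616 to 0.108), Acly (0.0087 with processed signals, 0.21 in the authors' deposited table, 0.0089 with array weights; -0.0814 to 0.0948), Scd (0.14 in the authors' deposited table; -0.145 to 0.0814), Scd2 (-0.0491 with median centring; -0.0741 to 0.0624), Hsd17b12 (0.11 in the authors' deposited table) and Insig1 (-0.0342 with a dye term, -0.0769 without array 3). Among the other named genes, means moved by over 1.5 times without array 1 (Thrsp 0.15, Me2 -0.11) and with processed signals (Elovl2 -0.30), median centring (Hadh 0.48) or the authors' deposited table (Mid1ip1 -0.0447, Nr1h2 -0.18), among others. The causes were not tested. Each ratio sets a T3 against a saline sample of the same array, so the fit is within pairs as it stands and had no further replicate block to add. Dim probes (Acaca, Elovl5 and Fads2) and the number of arrays limit what could be detected.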
